A study of Homo sapiens with 4 samples.

Results

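The intervals on chromosome 8 in the S100A10 ChIP-seq peak lists numbered 396, namely 374 of the 4148 intervals of HCT116 and 22 of the 1380 intervals of LoVo, both called in PGCCs with daughter cells. An interval is a stretch of the genome in which the immunoprecipitated DNA exceeded the input DNA, and a summit is the position of its maximum. Every line of both lists with chromosome 8 was taken, and lines with the same start and end were merged, which joined 375 HCT116 summits and 23 LoVo summits into these intervals. Chromosome 8 was chosen on its HCT116 interval density, so that density and its change along the chromosome are given as descriptions, whereas the LoVo counts in the same windows did not enter the choice.

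S100A10 ChIP-seq was performed in 2 established human colorectal cancer cell lines, HCT116 and LoVo, each line with 1 library of S100A10 ChIP and 1 of input DNA. Cells of all 4 libraries had received CoCl2 (535.5 µM for 48 h according to the sample labels, whereas the methods of the study give a lower concentration and a range of times), and cells without CoCl2 were not analysed here. The material was a mixture of PGCCs and the daughter cells they give rise to, and the lots of the S100A10 antibody differed between the cell lines, so that cell line and antibody lot cannot be told apart. After removal of duplicates, the ChIP libraries held 16561424 tags (HCT116) and 19762814 tags (LoVo), and the input libraries held 14962190 and 12925105 tags. With 1 library of each kind, no value below has a replicate error. The 95% intervals given with counts (exact Poisson) and shares (exact binomial, Clopper-Pearson) cover counting error only and treat neighboring intervals as independent.

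PGCCs (polyploid giant cancer cells) are large tumor cells with several or enlarged nuclei that form under stress such as CoCl2, a mimic of hypoxia, and that bud off smaller daughter cells. S100A10 is a small EF-hand protein best known at the cell surface, where it pairs with annexin A2 and acts as a plasminogen receptor. It is not known as a sequence-specific DNA-binding protein, and ChIP also recovers DNA that a protein reaches through other chromatin proteins. Chromosome 8 carries the defensin genes and other copy-rich gene families near the end of its short arm and a long arm that is often gained in colorectal cancer. HCT116 cells are described in cytogenetic work as carrying extra material from the distal long arm of chromosome 8 and from the long arms of chromosomes 10 and 17.

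HCT116 had more intervals on chromosome 8 than on any other assembled chromosome, 10.7% of those on the 24 assembled chromosomes, whereas LoVo had few. Up to the last annotated gene, at 145 Mb, the HCT116 density was 2.58 intervals per Mb (2.32 to 2.85), against 1.06 per Mb on the other assembled chromosomes, which is 2.44 times as much (2.19 to 2.72). It was the fifth highest density of the 24 chromosomes. In LoVo the density on chromosome 8 was 0.152 per Mb (0.0950 to 0.230), against 0.337 per Mb on the other chromosomes, a ratio of 0.450 (0.281 to 0.685) and rank 17 of 24. The excess in HCT116 lay among intervals of low score. A summit was scored by the last score column of the lists, read as the −log10 q of the peak caller, which is adjusted for multiple testing. The column's name was damaged and the header states that q was not calculated, so this reading rests on the column order. By it, 25 of the 375 HCT116 summits on chromosome 8 (6.67%, 4.36 to 9.68) had a q of at most 0.05. Of all HCT116 summits 29.3% did, and 25.6% of those on the other assembled chromosomes. A low share was not particular to chromosome 8, since 9 of 116 summits on chromosome 7 and 4 of 60 on chromosome 12 reached this limit. The 25 intervals on chromosome 8 at this limit gave 0.172 per Mb, rank 12 of 24. This was 0.726 times the density of such intervals on the other chromosomes (0.467 to 1.08). In LoVo, 7 of 23 summits on chromosome 8 (30.4%, 13.2 to 52.9) reached a q of 0.05, and 33.4% of all LoVo summits did.

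The HCT116 intervals were unevenly spread along the chromosome. The arms were divided at 45 Mb, the middle of the widest stretch without an annotated gene (3.01 Mb, from 43540928 to 46549088). The short arm held 30 HCT116 intervals, 0.666 per Mb (0.449 to 0.951), and the long arm 344, 3.44 per Mb (3.09 to 3.82), a ratio of 5.16 (3.55 to 7.77). The rise did not start at the division between the arms. Dividing the 5 Mb windows into 2 stretches of constant density placed the change at 65 Mb, on the long arm, whereas windows of 1 Mb placed it at 67 Mb and windows of 10 Mb at 110 Mb. Counting only intervals at a q of 0.05 or less placed it at 80 Mb. The division at 65 Mb was used for all other values. Before it, HCT116 had 44 intervals at 0.677 per Mb (0.492 to 0.909), which is 0.641 times the density on the other chromosomes (0.464 to 0.862). Beyond it there were 330 at 4.12 per Mb (3.69 to 4.59), 3.90 times the density on the other chromosomes (3.47 to 4.37). The density beyond the change was thus 6.09 times that before it (4.44 to 8.54). Among intervals at a −log10 q of at least 2 the ratio was 2.44 (0.842 to 8.57). At a fold enrichment, defined below, of at least 5 it was 0.812 (0.0589 to 11.2). Both of these ranges include equal density. The 14 intervals of the long arm before the change gave 0.702 per Mb, 1.05 times the density of the short arm (0.516 to 2.05). The part of the long arm nearest the centromere was thus thinly covered, like the short arm. The far end of this part was placed by the same counts, so the likeness is a description and not a test.

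**Figure D1:**
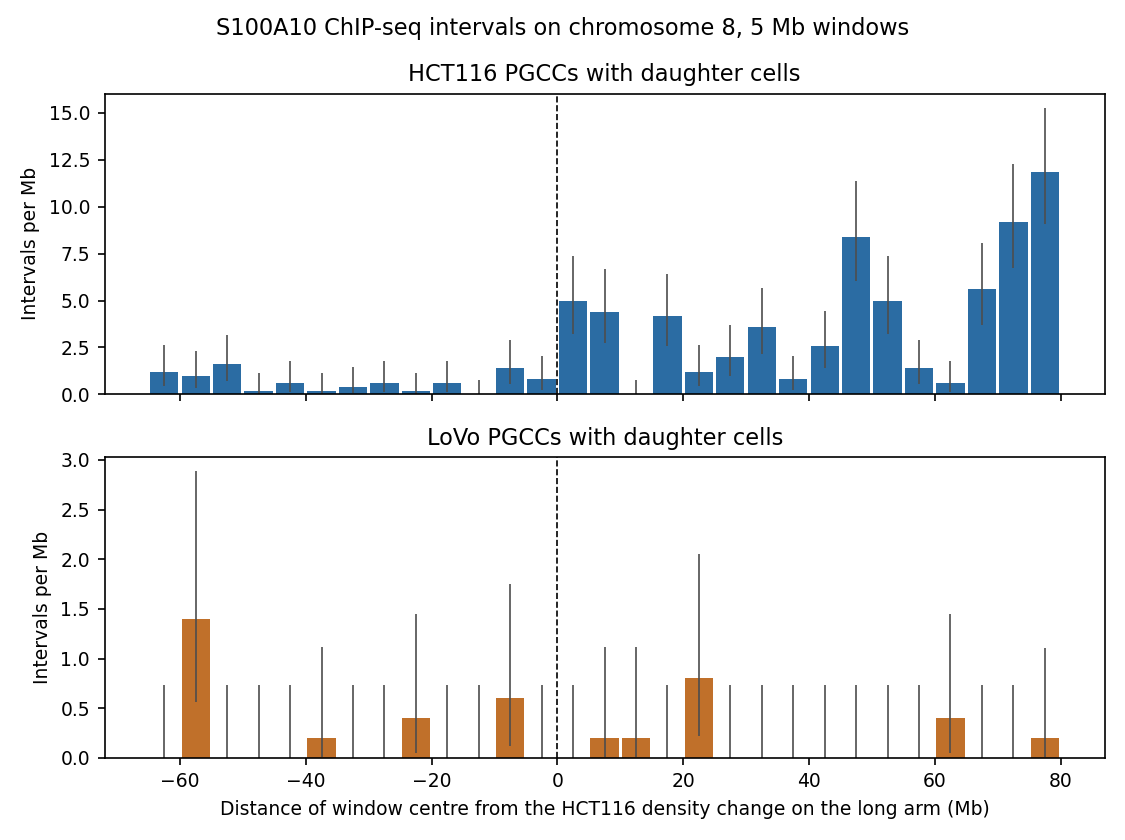
Intervals per Mb in 5 Mb windows along chromosome 8 (bars, with 95% Poisson intervals as lines) in HCT116 (top) and LoVo (bottom), against the distance in Mb of the window's centre from the HCT116 density change (dashed line). In HCT116 every window before the change lies at 1.6 per Mb or lower and the last window at 11.9 per Mb, while LoVo stays at or under 1.4 per Mb throughout.

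LoVo showed no such rise. LoVo had 10 intervals on the short arm (0.222 per Mb) and 12 on the long arm (0.120 per Mb), a ratio of 0.540 (0.214 to 1.40). On both sides of the HCT116 change it had 13 intervals (0.200 per Mb) and then 9 (0.112 per Mb), a ratio of 0.562 (0.212 to 1.42). The intervals of both LoVo ratios include equal density, and both lie below the HCT116 ratios. Without the LoVo intervals from 85.6 to 85.9 Mb, a stretch singled out after its values were seen, the second ratio was 0.313 (0.0875 to 0.937). That stretch held 4 of the 9 LoVo intervals beyond the change, so leaving it out had to lower the ratio. No fall in LoVo is therefore read from this value. With 1 ChIP library each, the contrast of HCT116 and LoVo could not be set against a spread between replicates.

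The 13 windows before the change held between 0 and 8 HCT116 intervals with a median of 3, and the 16 windows beyond it between 0 and 60 with a median of 19.5. Of the latter, 11 held at least 10 intervals, a number reached by no window before the change. Isolated intervals lay at 65.3, 65.9 and 66.4 Mb, and a closely spaced run began at 67776943. The first dense windows, from 65 to 70 Mb and from 70 to 75 Mb, held 25 and 22 intervals. Then came the window from 75 to 80 Mb with 0. The densest were the window from 110 to 115 Mb with 42 intervals (8.4 per Mb, 6.05 to 11.4), that from 135 to 140 Mb with 46 (9.2 per Mb, 6.74 to 12.3) and the last, from 140 Mb to the last gene, with 60 (11.9 per Mb, 9.06 to 15.3). LoVo had 0 intervals in 20 of the 29 windows, among them 11 of the 16 beyond the change. Its fullest window was on the short arm, from 5 to 10 Mb, with 7 intervals, and in the 3 windows that were densest in HCT116 it had 0, 0 and 1.

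Inside the dense stretch the HCT116 intervals came in runs separated by gaps. The median distance between neighboring intervals was 90.0 kb beyond the change (quartiles 32.1 and 200.8 kb) and 801.5 kb before it, and 32 of the 329 distances beyond the change were within 10 kb. The widest gap of the dense stretch ran from 74.0 to 82.0 Mb, 8.01 Mb without an interval. Others ran from 85.7 to 91.6 Mb (5.86 Mb) and from 98.4 to 102.7 Mb (4.22 Mb). These gaps were not gene deserts. The first held 115 annotated genes, 28 of them protein-coding, and the second held 79 and 24. LoVo had 1 interval in the first gap and 3 in the second.

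Beyond the change, the number of intervals in a window showed little relation to its number of genes. Over these 16 windows, Spearman's rank correlation between HCT116 intervals and annotated genes was −0.051, and −0.097 for protein-coding genes, a description over windows that share 1 library. Over the 13 windows before the change, with few intervals, it was 0.382 and −0.031. The window from 110 to 115 Mb held 42 intervals and only 1 protein-coding gene, CSMD3, which encodes a large transmembrane protein with CUB and sushi domains. The window from 135 to 140 Mb held 46 intervals and 4 protein-coding genes. By contrast, the last window held 60 intervals and 105 protein-coding genes.

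The intervals of the dense stretch rested on few tags. The number of tags is the count of ChIP fragments that cover a summit, and the smallest in the HCT116 list was 6. Between 6 and 8 tags lay 250 of the 330 summits beyond the change (75.8%), 28 of the 45 before it (62.2%) and 54.8% of the summits on the other assembled chromosomes. More than 20 tags were found at 5 summits beyond the change and at 0 before it, against 332 (9.93%) on the other chromosomes. The maximum was 47 tags on chromosome 8 and 486 elsewhere. The lowest tag numbers were thus more frequent on chromosome 8, and summits of over 20 tags were few there on both sides of the change.

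**Figure D2:**
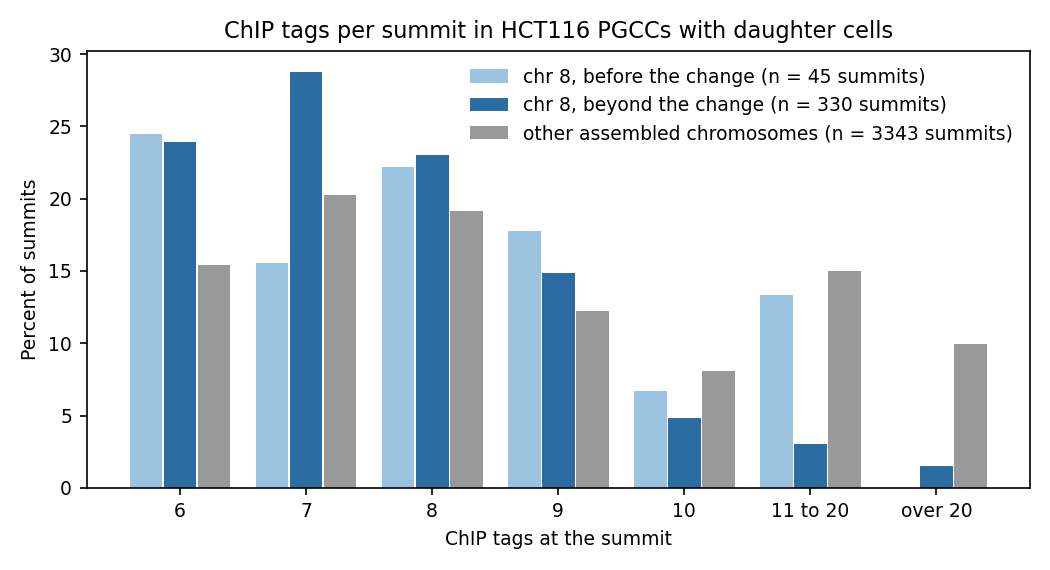
Share of HCT116 summits (percent, vertical axis) by the number of ChIP tags at the summit (horizontal axis) before and beyond the density change of chromosome 8 and on the other assembled chromosomes. Summits with 6 to 8 tags make up 75.8% beyond the change and 54.8% on the other chromosomes, and summits with over 20 tags 1.52% and 9.93%.

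The other scores followed the tags. The median fold enrichment, the ratio of the scaled pileup of tags to the local background with 1 added to each, was 3.25 on chromosome 8 in HCT116 and 3.50 on the other chromosomes, and 4 of the 375 summits (1.07%) reached a fold enrichment of 5, against 9.63% elsewhere. The median −log10 q was 0.0148 and 0.566, and 33.3% and 22.9% of the summits were listed at 0. Within chromosome 8, a q of 0.05 was reached by 5 of the 45 summits before the change (11.1%) and by 20 of the 330 beyond it (6.06%). Counted at this limit alone, the density beyond the change was 3.25 times that before it (1.18 to 11.1) and 1.05 times that of such intervals on the other chromosomes (0.639 to 1.64). The median interval was 290 bp long on chromosome 8 and 314 bp elsewhere, and 146 of the 374 intervals (39.0%) had exactly the 260 bp to which each tag had been extended, against 30.7% elsewhere. The LoVo summits of chromosome 8 rested on a median of 14 tags, from 8 to 64.

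Most HCT116 summits on both sides of the change had a local input background at its lowest possible value. The peak caller compares ChIP tags with a local background, the largest of the genome-wide mean of the input (1.25 tags in HCT116 and 1.17 in LoVo) and its means around the summit (over 1 fragment, 1000 bp or 10000 bp), and this background was recovered from the pileup and the fold enrichment. It was at the genome-wide mean, within 0.01 tags, at 28 of the 45 summits before the change (62.2%, 46.5 to 76.2), at 207 of the 330 beyond it (62.7%, 57.3 to 68.0) and at 55.2% of the summits on the other chromosomes. The medians were 1.26 tags in all 3. Since the genome-wide mean is the lowest value this background can take, these shares fix the medians. Equal medians therefore do not compare the input on both sides. A summit at the genome-wide mean had been compared with the mean of the whole genome and not with the input around it. Among the dense windows this share varied, from 39 of 46 summits in the window from 135 to 140 Mb to 10 of 28 from 130 to 135 Mb and 4 of 18 from 95 to 100 Mb. In LoVo the background was at the mean at 17.4% of the summits on chromosome 8 and at 18.3% elsewhere. Copy number and the number of reads over each window were not measured here, and their part in the HCT116 density was not tested.

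**Figure D3:**
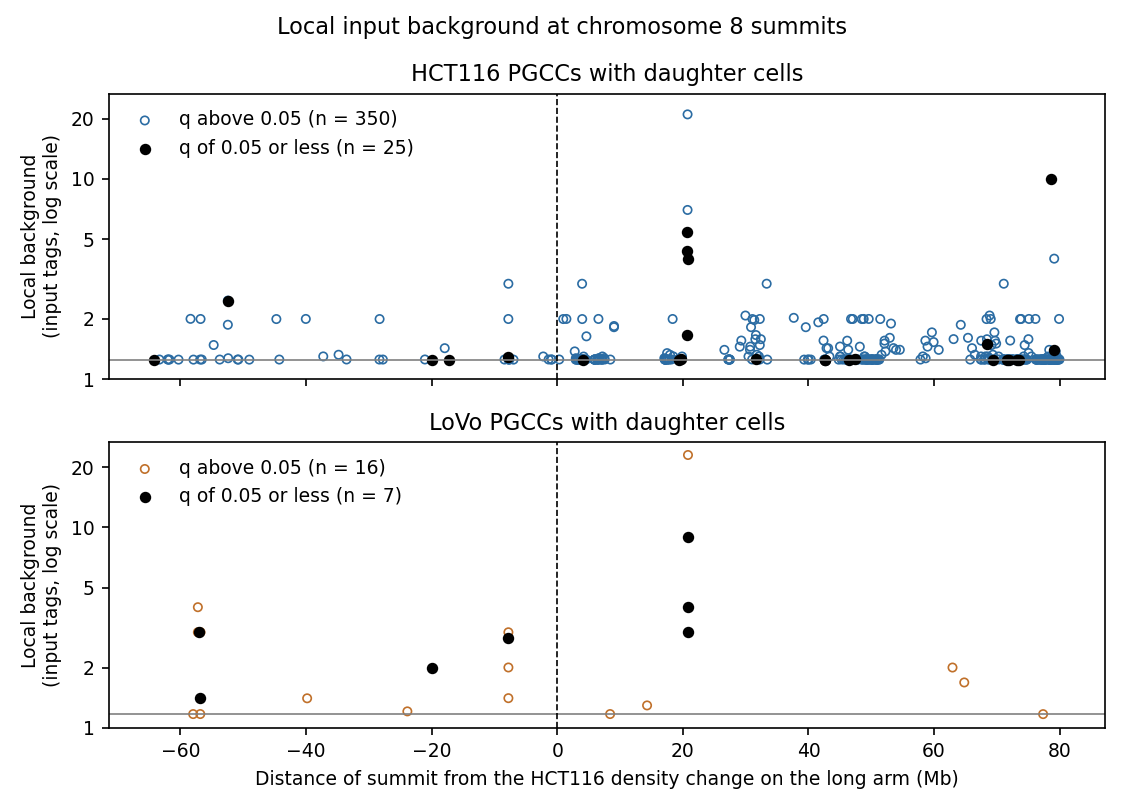
Local input background in tags (log axis) at each chromosome 8 summit in HCT116 (top) and LoVo (bottom), against the distance in Mb of the summit from the HCT116 density change (dashed line), with summits at a q of 0.05 or less filled and the genome-wide mean as a grey line. Most HCT116 summits lie on the line of 1.25 tags on both sides, and both cell lines have their highest backgrounds, 21.0 and 23 tags, in the same stretch beyond the change.

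Chromosomes 10 and 17 also carried a dense distal stretch in HCT116 and not in LoVo. Divided in the same way, chromosome 10 changed at 100 Mb, from 1.3 to 6.31 HCT116 intervals per Mb, and chromosome 17 at 45 Mb, from 1.44 to 6.28 per Mb. The dense stretches resembled that of chromosome 8 in their scores. A q of 0.05 was reached by 10.2% of the summits in the stretch on chromosome 10 and by 6.67% on chromosome 17, the median summit had 7 and 8 tags, and the median fold enrichment was 3.25 in both. The background was at the mean at 63.7% and 63.8% of these summits. LoVo fell from 0.50 to 0.0888 intervals per Mb over the same point of chromosome 10 and from 0.822 to 0.0523 per Mb on chromosome 17. On chromosome 7 the density rose in both lists beyond 150 Mb, in LoVo from 0.353 to 9.53 intervals per Mb (88 intervals beyond) and in HCT116 from 0.627 to 2.38 per Mb (22 intervals beyond). Chromosomes 10, 17 and 7 were chosen for comparison with their density in these lists known, but not by rank. Chromosomes 21, 22 and 20 were denser than chromosome 8 in HCT116 (6.36, 3.29 and 2.60 per Mb) and were not divided in this way. In LoVo, chromosomes 21, Y and 22 were denser than chromosome 7. The likeness therefore covers these chosen chromosomes only, and each change was placed where the HCT116 counts put it.

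**Figure D4:**
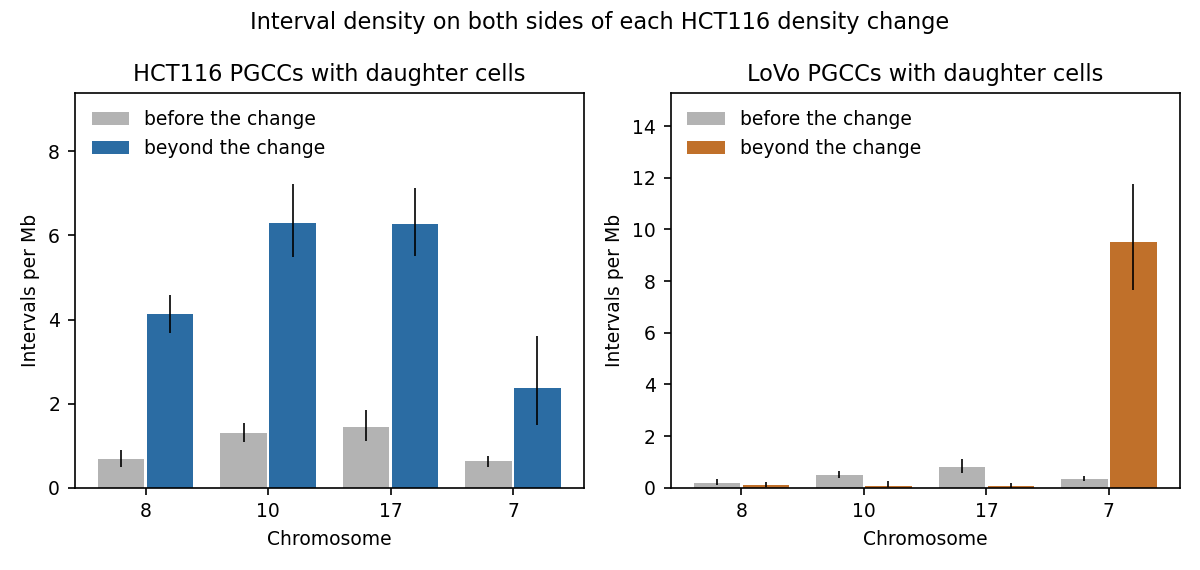
Intervals per Mb before (grey) and beyond (colored) the HCT116 density change of chromosomes 8, 10, 17 and 7 in HCT116 (left) and LoVo (right), with 95% Poisson intervals as lines. In HCT116 the density rises on all 4, to 4.12, 6.31, 6.28 and 2.38 per Mb, while LoVo rises on chromosome 7 alone among these 4, to 9.53 per Mb.

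The lists of the cell lines had 3 places in common on chromosome 8. A LoVo interval was overlapped, by at least 1 bp, by 3 of the 374 from HCT116 (0.802%, 0.166 to 2.33). This compares with 10.5% on the other assembled chromosomes and 13.9% of the whole HCT116 list. In LoVo, 3 of 22 were shared with HCT116 (13.6%, 2.91 to 34.9), against 36.2% on the other assembled chromosomes and 45.1% of the whole LoVo list. Beyond the change, 1 of the 330 HCT116 intervals was shared. Such low sharing was not particular to chromosome 8. In the dense HCT116 stretches of chromosomes 10 and 17, 3 of 213 intervals (1.41%) and 0 of 240 were shared. No annotated gene lay at any of the 3 shared places on chromosome 8, for which positions are given in GRCh38.

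The shared pair beyond the change lay at chr8:85734322-85734747 in HCT116 and chr8:85734400-85734716 in LoVo, with the summits 17 bp apart. It had 18 tags and a −log10 q of 2.0 in HCT116, and 26 tags and 2.18 in LoVo, with a local background of 4.0 tags in both. Both other pairs lay together before the change. At chr8:57205816-57206292 the HCT116 summit had 12 tags and a −log10 q of 1.27, and the LoVo summit, 184 bp away, 21 tags and 1.46. At chr8:57214984-57215486 the summits were 7 bp apart, with 8 tags and a −log10 q of 0.566 in HCT116 and 14 tags and 0.223 in LoVo. All 3 places thus had more tags in the deeper LoVo ChIP library, and the tags are not scaled to depth.

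Intervals of both cell lines crowded around 85.7 Mb, a stretch singled out after its values were seen. Between 85.6 and 85.9 Mb, HCT116 had 6 intervals, 4 of them at a q of 0.05 or less, and LoVo had 4, of which 3 reached that limit. The local background there was from 1.66 to 21.0 tags in HCT116 (median 4.91) and from 3.0 to 23 in LoVo (median 6.50), against a median of 1.26 over the HCT116 summits beyond the change. The summits had up to 47 tags in HCT116 and 64 in LoVo. The stretch holds 16 annotated genes, 11 of which are pseudogenes of the REXO1L family, copies related to an RNA exonuclease gene. The authors called peaks on uniquely mapped tags, and how well such tags separate similar copies was not measured, so the positions of these intervals are uncertain.

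Few of the HCT116 intervals on chromosome 8 ranked high in the list. The first, at chr8:85645330-85645619 in the REXO1L stretch, had 17 tags with an enrichment of 6.14 and reached a −log10 q of 6.21, which placed it 530th among the 4530 summits. The second, at chr8:45093112-45093394 in the gene-free stretch between the arms, had 15 tags, a fold enrichment of 6.45, a −log10 q of 5.83 and a background at the genome-wide mean. The next lay at chr8:85655617-85655986, again in the REXO1L stretch, with 25 tags over a background of 4.37 tags and a −log10 q of 5.29. None of these 3 lay in an annotated gene. The fifth, at chr8:57209537-57210271, lay between the shared places near 57.2 Mb and had 13 tags and a −log10 q of 3.71.

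The highest interval in a protein-coding gene was the fourth, at chr8:138206176-138206528 in FAM135B, with 13 tags, 5.65-fold enrichment and a −log10 q of 3.86. The sixth lay in the noncoding gene LOC729732, at chr8:12585073-12585360 on the short arm, with 16 tags and a −log10 q of 3.13. Ranks 7 to 9 each had 11 tags, 4.85-fold enrichment and a −log10 q of 2.04. They lay in RALYL, which encodes an RNA-binding protein, at chr8:84662195-84662598, in CPQ, which encodes a carboxypeptidase, at chr8:96676719-96677058, and in CSMD3, at chr8:112397731-112398096. The tenth, at chr8:849230-849557 in DLGAP2, which encodes a scaffold of the postsynaptic density, had 10 tags. It was 1 of 14 intervals at this −log10 q, ranks 7 to 9 included, and 1 of 11 that also had its fold enrichment of 4.45, so its rank rests on its position alone.

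Of the 5 strongest LoVo intervals, 3 lay in the same stretches as the first 3 of HCT116, without overlapping them. The first, at chr8:8019942-8020407 in FAM90A24, had 27 tags, 4.66-fold enrichment and a −log10 q of 3.86, and the fifth, at chr8:8027862-8028495 in FAM90A12, had 18 tags and a −log10 q of 2.97. FAM90A genes form a family of near-identical copies on the short arm. The second lay at chr8:44977841-44978124, with 22 tags and a −log10 q of 3.83, on the other side of the division between the arms from the second HCT116 interval. The third and the fourth lay in the REXO1L stretch, at chr8:85773799-85774415 with 47 tags over a background of 9.0 tags and at chr8:85771713-85772067 with 25 tags, and had a −log10 q of 3.55 and 3.14. The best LoVo intervals thus lay among the FAM90A copies, among the REXO1L copies and in the gene-free stretch between the arms.

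An annotated gene was overlapped by 207 of the 374 HCT116 intervals on chromosome 8 (55.3%, 50.2 to 60.5), against 46.7% of all HCT116 intervals on assembled chromosomes. Gene bodies cover 56.8% of the sequence of chromosome 8 up to its last gene and 54.2% of the other chromosomes. Before the change 29 of 44 intervals (65.9%) lay in a gene, and beyond it 178 of 330 (53.9%), where gene bodies cover 57.5% and 56.2% of the sequence. The share of intervals in genes beyond the change was therefore close to the share of sequence that genes occupy. In LoVo, 9 of 22 intervals (40.9%, 20.7 to 63.6) lay in a gene, against 31.8% of all LoVo intervals on assembled chromosomes. Exons, introns and start sites were not resolved, since the annotation used gives the start and end of each gene.

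Of the 2448 annotated genes of chromosome 8, 127 (5.19%) had an HCT116 interval, against 2.26% of all annotated genes. Before the change it was 23 of 1201 genes (1.92%) and beyond it 104 of 1247 (8.34%). Among protein-coding genes beyond the change, 70 of 366 (19.1%) had an interval, against 4.46% of all protein-coding genes. The genes with an interval were long, and those beyond the change had a median length of 94.7 kb, against 5.90 kb for all genes there. In LoVo, 9 of the 2448 genes (0.368%) had an interval, against 0.436% of all annotated genes.

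The genes with the most HCT116 intervals were long and, except LOC729732, lay beyond the change. LOC729732 had 4 intervals and was placed before the other genes with 4, such as CSMD1 and TRAPPC9, by its −log10 q. FAM135B (368 kb) and the noncoding gene LINC02055 (367 kb) had 8 intervals each. CSMD3 (1214 kb) and C8orf34 (489 kb) had 6 each. Another 5 genes had 5 each, namely the noncoding genes LINC01592 and LOC101927066, RALYL, XKR9, which encodes a protein of the XK family, and COL22A1, which encodes the collagen XXII chain. LoVo had 0 intervals in all 10 of these genes.

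Ranked by −log10 q, the protein-coding genes that followed FAM135B, CPQ, CSMD3 and RALYL in HCT116 included several short ones. CEBPD, a single-exon gene of 1.25 kb that encodes the transcription factor C/EBP delta, had 1 interval at chr8:47737370-47737665 with 10 tags and a −log10 q of 2.04. The long gene DLGAP2 (971 kb) had 2 intervals and the same best value. CYC1, which encodes cytochrome c1 of respiratory complex III and is 2.45 kb long, had 1 interval at chr8:144095851-144096110 with 10 tags and a −log10 q of 1.72. SDC2, which encodes the cell surface proteoglycan syndecan-2, followed with 1.29. The other 7 of the first 15 each had 9 tags, 4.05-fold enrichment and a −log10 q of 1.27 and were ordered by symbol among equal genes. They were ADGRB1, an adhesion G protein-coupled receptor gene, EXOSC4, which encodes a subunit of the RNA exosome, FOXH1, which encodes a transcription factor that works with SMAD proteins, PRAG1, SGCZ, which encodes a sarcoglycan, STAU2, which encodes a double-stranded RNA-binding protein, and TIGD5. None of these 7 reached a q of 0.05, nor did SDC2.

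Both lists had an interval in 3 genes of chromosome 8, but at different positions in each. The noncoding gene FAM85B had 2 intervals in each cell line, with a best −log10 q of 1.27 in HCT116 and 0 in LoVo. The pseudogene ENPP7P1 had 1 in each, with 0.126 and 0. TSNARE1, which encodes a protein with a SNARE domain, was the 1 protein-coding gene among them. Its HCT116 interval lay at chr8:142252921-142253180 with 9 tags and a −log10 q of 1.27, and its LoVo interval at chr8:142357697-142357997 with 11 tags and 0.323.

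Lists of chromosome 8 genes with a shared role were read beside these shares. The first held the 96 defensin genes and members of other repeated families of the short arm (USP17L, FAM90A, FAM66, ZNF705, SPAG11, PRR23D and OR7E), and HCT116 had an interval in 0 of them, beside 1.92% of all genes before the change. LoVo had an interval in 3 (3.12%, beside 0.583% of all genes before the change), FAM90A24, FAM90A12 and DEFA3, which encodes a neutrophil alpha-defensin and was selected in the study for its link to cytoskeleton and migration. The study had screened the peaks of both cell lines by −log10 q before choosing DEFA3, and it tested DEFA3 by PCR of ChIP DNA. The DEFA3 interval in LoVo, at chr8:7016263-7016714, had 13 tags, 4.38-fold enrichment and a −log10 q of 1.10, over a background at the genome-wide mean. It did not reach a q of 0.05, whereas the intervals in FAM90A24 and FAM90A12 did. HCT116 had 0 intervals in DEFA3. With TSNARE1, the genes FAM90A24, FAM90A12 and DEFA3 made up all 4 protein-coding genes of chromosome 8 that held a LoVo interval. Some members are near-identical copies, and the assignment of reads among them was not examined here.

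Of 30 short-arm genes discussed as tumor suppressors, 3 (10%) had an HCT116 interval, beside 3.72% of all protein-coding genes before the change, and 0 a LoVo interval, which 0.860% of those genes had. CSMD1, which like CSMD3 encodes a CUB and sushi domain protein, had 4 intervals with a best −log10 q of 0.566. MCPH1, which encodes microcephalin, and LZTS1 had 1 each, listed at 0. None of the 3 reached a q of 0.05.

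Of 50 long-arm genes discussed in gains of this arm, 12 (24%) had an HCT116 interval. Beyond the change 19.1% of all protein-coding genes and 8.34% of all genes did, and the list holds protein-coding and noncoding genes. CYC1 was the 1 member that reached a q of 0.05, and the median over the 12 was 0.0807. ASAP1, which encodes an Arf GTPase-activating protein, came next with 10 tags and a −log10 q of 1.27. TRAPPC9, a component of the TRAPP trafficking complex, had 4 intervals and at best 0.618, and TRPS1, which encodes a GATA-type repressor, and BOP1, a ribosome biogenesis gene, had 2 each and 0.566. ANGPT1 (the TIE2 ligand angiopoietin-1) had 2 intervals and 0.147. TNFRSF11B (osteoprotegerin), PTP4A3 (a tyrosine phosphatase) and PUF60 (a splicing factor) were at 0.0148, and EXT1 (heparan sulfate synthesis), ADCY8 (an adenylyl cyclase) and ST3GAL1 (a sialyltransferase) at 0. In LoVo, the noncoding gene PVT1 was the 1 member with an interval, with 10 tags and a −log10 q of 0 (2% of the list, beside 0.160% of all genes beyond the change).

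Of 47 genes of cytoskeleton, adhesion and migration, 10 (21.3%) had an HCT116 interval and 0 a LoVo interval, which 0.559% of all protein-coding genes of the chromosome had. CSMD3 was the 1 member at a q of 0.05 or less. SULF1, which encodes an extracellular heparan sulfate sulfatase, had 2 intervals and a best −log10 q of 1.25, ARHGAP39 2 and 1.23, and MTSS1, which encodes a membrane-bending I-BAR protein, 1 and 1.10. PLEC, which encodes the cytolinker plectin, had 2 at 0.0148, and NEFL, a neurofilament gene, 1 at 0. The other members, CSMD1, ANGPT1, ASAP1 and PTP4A3, are also in the lists above. This list spans both arms, and its share stands beside 11.6% of all protein-coding genes of the chromosome and 19.1% of those beyond the change.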

How the data were processed

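For HCT116 and LoVo, 1 peak list each was used, from 1 library of S100A10 ChIP and 1 of input. Per the file headers, the authors called peaks with MACS2 (2.1.0.20150420) on uniquely mapped tags without duplicates, at a p-value cutoff of 0.005, with no fragment model, an extension of 260 bp (HCT116) or 281 bp (LoVo) and a genome size of 3099750718 bp. The deposited pileup signal is the coverage by extended ChIP tags after scaling to the input (0.903 in HCT116 and 0.654 in LoVo). The deposited fold enrichment is the ratio to the local background. The deposited −log10 p and −log10 q columns had damaged names and were identified by the MACS2 column order, although the header states that q was not calculated. The aligner and genome build are not given in the sources used here. Unplaced sequences carry GRCh38 names, so genes came from RefSeq GRCh38.p14.

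Lines with equal positions were merged, tags were computed as pileup over the scale, and intervals were counted by midpoint in 5 Mb windows. The change is the best division by Poisson likelihood. The method was run on simulated data, which does not show how certain the position is in the observed counts. Those counts came in runs and gaps, and the position moved with the window size and the limit on q. Named items were DEFA3, the 10 (HCT116) and 5 (LoVo) highest intervals by −log10 q, all shared intervals, list members with an interval, the first 15 and 5 protein-coding genes, the 10 genes with most intervals and genes hit in both lists. The members, lists and compared chromosomes were chosen with earlier results of these data known. Of the 49 symbols of the cytoskeleton list, 2 matched no gene. Promoter and genome sequence of chromosome 8 was not used here. Computations used scipy 1.17.1, pandas 2.3.3 and numpy 2.4.6 and plots matplotlib 3.10.9, under Python 3.11.15.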

Additional observations from a re-analysis of the deposited data

Results flagged for a closer look

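Counted over all intervals, the HCT116 density rose beyond a point of chromosome 8 over which LoVo showed no such rise. In HCT116 the interval density beyond 65 Mb was 6.09 times that before it (4.44 to 8.54), whereas in LoVo it was 0.562 times (0.212 to 1.42), a range that includes equal density. Stricter limits lowered the HCT116 ratio to 3.25 at a q of 0.05 (1.18 to 11.1) and 2.44 at a −log10 q of at least 2 (0.842 to 8.57). At a fold enrichment of at least 5 it was 0.812 (0.0589 to 11.2). Leaving out 85.6 to 85.9 Mb, chosen after its values were seen, gave 0.313 in LoVo (0.0875 to 0.937), a fall that this choice made certain. The difference was not tested, since each cell line had 1 ChIP library and 1 input library, and the point itself was placed by the HCT116 counts. Dixon's test for outlying samples needs at least 4 samples in a group and could not be applied.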

How the results depend on the processing

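The HCT116 excess on chromosome 8 depended on the score at which intervals were counted. The number of HCT116 intervals fell from 374 to 20 at a −log10 q of at least 2, to 25 at a q of 0.05 or less and to 4 at a fold enrichment of at least 5, and that of LoVo from 22 to 6, 7 and 2. The density relative to the other chromosomes in HCT116 moved from 2.44 to 0.664 (0.403 to 1.03) and 0.726 (0.467 to 1.08), ranges that include equal density, and to 0.313 (0.0847 to 0.812). The density beyond the change over that before it moved from 6.09 to 2.44 at a −log10 q of at least 2 (0.842 to 8.57, a range that includes equal density) and 3.25 at a q of 0.05, and came to 0.812 at a fold enrichment of 5 (0.0589 to 11.2, with 2 intervals on each side). At that limit the LoVo ratios of long to short arm and of beyond to before the change were 0, and the HCT116 ratio of the arms could not be computed. The change moved from 65 Mb to 80 Mb at both limits on q and to 110 Mb with 10 Mb windows, and a second change was placed at 135 Mb. The HCT116 share that overlaps LoVo was 0% at a −log10 q of 2 and 4% at a q of 0.05, and the LoVo share 0% at a −log10 q of 2. The share of HCT116 intervals in a gene was 48% at a q of 0.05, 64.2% with gene bodies extended by 5 kb and 38.2% with protein-coding genes alone, and the LoVo share was 68.2% and 18.2% under both gene alternatives. The cause of these shifts was not tested. The other 53 values kept their direction, with counts within 1.5 times, among them every value from all summits, from chromosomes 1 to 22, from another arm boundary and without 40 to 50 Mb. Among these, the range of the LoVo density relative to the other chromosomes (0.450) came to include equal density at a −log10 q of 2 (0.538, 0.196 to 1.19), a q of 0.05 (0.488, 0.194 to 1.02) and a fold enrichment of 5 (0.654, 0.0775 to 2.47), as did the HCT116 arm ratio at a −log10 q of 2 (4.05, 0.970 to 36.0). The LoVo median local background beyond the change, also among them, went from 2.0 to 4.0 tags at a −log10 q of at least 2. An alternative chosen after seeing the data, without 85.6 to 85.9 Mb, gave a beyond-to-before ratio of 6.0 in HCT116 and 0.313 in LoVo (0.0875 to 0.937). It left out 4 LoVo intervals that all lay beyond the change, so the LoVo ratio could only fall, and no conclusion is drawn from its range. No paired analysis was possible because the labels carry no shared replicate numbers and each cell line has 1 ChIP library. With 6 to 8 tags behind most HCT116 summits, the place of a single HCT116 interval is uncertain. In both lists, intervals close together are not independent counts.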
